A study of Mus musculus with 10 samples.

Results

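The control arm of a study of Setdb1 in mouse oocytes was made of 2 genotypes, and they were compared here with each other. The members are the 6 control libraries of the 10 in the series, taken by their labels: 4 from Setdb1 f/+; Zp3-cre mice and 2 from Setdb1 f/- mice. A gene entered the comparison if its mean over these 6 libraries was at least 0.5 RPKM (reads per kilobase of transcript, scaled to the read total of the library), which 11177 of 24453 gene symbols met. Each library came from 1 mouse of the C57Bl/6J strain and holds the RNA of 16 oocytes stripped of their cumulus cells. All were collected at the germinal vesicle (GV) stage in medium with 2.5 mM milrinone. The other 4 libraries, from Setdb1 f/-; Zp3-cre mutants, are given beside the controls as values without a test of their own. The mutants share the transgene with one control genotype and the deleted allele with the other.

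The control genotypes differ in more than 1 respect. The f/+; Zp3-cre mice carried a floxed and an intact Setdb1 allele and the Zp3-cre transgene, in which a zona pellucida promoter drives Cre recombinase in growing oocytes. The f/- mice carried a floxed and a deleted allele and no Cre. Cre, the constitutively deleted allele, and the loss of an allele in the growing oocyte against its absence from the start cannot be told apart in this comparison. The table holds 0 rows for Cre, so Cre expression could not be read from it. A GV oocyte is a full-grown oocyte arrested in meiotic prophase, with little new transcription and a large store of messenger RNA, and milrinone keeps it arrested by blocking the breakdown of cyclic AMP. Setdb1 is a histone methyltransferase that modifies lysine 9 of histone H3 and silences retrotransposons and selected genes. Metallothioneins, one of which leads the differences below, are small cysteine-rich proteins that bind zinc and copper, and their genes are switched on by the zinc-sensing factor MTF1 through short promoter sequences called metal response elements.

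The promoters of Mt1 and of its neighbour Mt2 are printed because Mt1 differed between the genotypes by far more than any other tested gene on the log2 scale, while Mt2 stayed near 0 in most libraries. Both come from RefSeq on GRCm38.p6 and run 5′ to 3′ from 250 bases before to 50 bases after an annotated start of the gene. The span of Mt1 given below begins inside its window, upstream of the start that the window was cut around. Matches were counted in these windows only. Capitals mark matches on either strand to TGCACNC or TGCGCNC, the core of the metal response element, where N is any base.
Mt1 promoter, chr8:94178839-94179138, plus strand: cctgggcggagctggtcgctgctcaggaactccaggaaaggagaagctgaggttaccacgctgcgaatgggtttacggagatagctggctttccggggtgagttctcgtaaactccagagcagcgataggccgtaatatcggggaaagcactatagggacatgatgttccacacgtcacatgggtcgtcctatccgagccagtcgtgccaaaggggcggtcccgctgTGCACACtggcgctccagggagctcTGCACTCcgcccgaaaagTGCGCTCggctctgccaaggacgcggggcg
Mt2 promoter, chr8:94172368-94172667, plus strand: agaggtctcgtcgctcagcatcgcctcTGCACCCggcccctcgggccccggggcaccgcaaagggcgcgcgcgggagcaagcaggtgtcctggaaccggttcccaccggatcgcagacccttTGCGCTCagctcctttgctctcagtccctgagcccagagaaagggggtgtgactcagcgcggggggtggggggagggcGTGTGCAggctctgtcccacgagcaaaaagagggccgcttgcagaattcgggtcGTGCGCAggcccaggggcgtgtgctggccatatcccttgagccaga
The Mt1 window held 3 matches and the Mt2 window 4. Of 32851 promoter windows of 300 bases, 25.7% held at least 1 match, 1.97% at least 3 and 0.517% at least 4. The matches are a description of these letters and carry no statement about binding.

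Mt1 (chromosome 8, 94178883 to 94180327, GRCm38) was listed at 116, 124, 176 and 10.4 RPKM in f/+; Zp3-cre replicates 1 to 4. In the f/- libraries it was listed at 0.321 and 0.432 RPKM. The groups did not overlap, but f/+; Zp3-cre replicate 4 lay about an order of magnitude below its group. The means were 106 ± 69.4 RPKM (SD, n = 4) and 0.376 ± 0.0781 RPKM (SD, n = 2), a 283-fold ratio. On the scale of log2(RPKM + 0.5), on which all differences below were computed, f/+; Zp3-cre minus f/- was 6.38 ± 1.01 (SE), with an adjusted p of 0.0539 in limma, above the threshold of 0.05. An exact two-sided permutation test of this 1 gene gave p = 0.0667, the smallest that the 15 splits of 6 libraries into 4 and 2 allow. The test could thus not pass 0.05, and Mt1 stood out by these same values, so this p adds no separate support. Without f/+; Zp3-cre replicate 4 the limma adjusted p was 0.000198, and in a model that adds the mutants as a group of their own it was 0.0113. Mt1 passed under 7 of the 22 alternatives, which are not alike. Among them were a looser threshold of 0.1 and a block by replicate number, although shared numbers do not pair the mice. The fits with a lone f/- library were also among them, and these describe that library and not the genotype. The limma adjusted p was 0.238 without f/+; Zp3-cre replicate 1 and 0.103 with no filter on low values. With a spread of its own for each library or each group it was 0.827 and 0.882. The mutants, which also carry Zp3-cre, were listed at 334, 408, 279 and 308 RPKM. Mt1 was thus above 10 RPKM in each of the 8 libraries with the transgene and below 1 RPKM in both without it. The labels do not give the sequence of the transgene, so whether any of its transcript is counted under Mt1 was not tested, and the values are those of the Mt1 row.

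The other metal-handling genes had no difference of that size. Mt2 was listed at 0, 0.0270, 0 and 0.104 RPKM in f/+; Zp3-cre, at 0 and 1.02 RPKM in f/-, and below 1 RPKM in each mutant library. Mt3 was at 0 in all but f/+; Zp3-cre replicate 4, with 0.0539 RPKM. Both were too low to be tested. Of 30 genes of the metal and oxidative stress list, 22 were tested and 0 passed in limma. Their median difference was -0.04, against 0.06 over all tested genes, and 10 were positive and 12 negative. At an unadjusted p under 0.05, Mt1 was the 1 gene with a positive difference and Gpx1, Prdx1 and Slc39a6 had negative ones. Over all tested genes the shares at that p were 11.8% positive and 7.75% negative. Slc39a6, a zinc importer of the plasma membrane, was listed at 81.1, 79.1, 165 and 73.9 RPKM in f/+; Zp3-cre and at 177 and 181 RPKM in f/-. Its groups did not overlap, with f/+; Zp3-cre replicate 3 close to the f/- level, and its difference of -0.92 had an adjusted p of 0.169 in limma. Of 25 heat shock and unfolded protein genes, 21 were tested and 0 passed in limma, with a median difference of -0.02. Among the 21, 2 had an unadjusted p under 0.05, both with negative differences (7.75% over all tested genes).

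**Figure D1:**
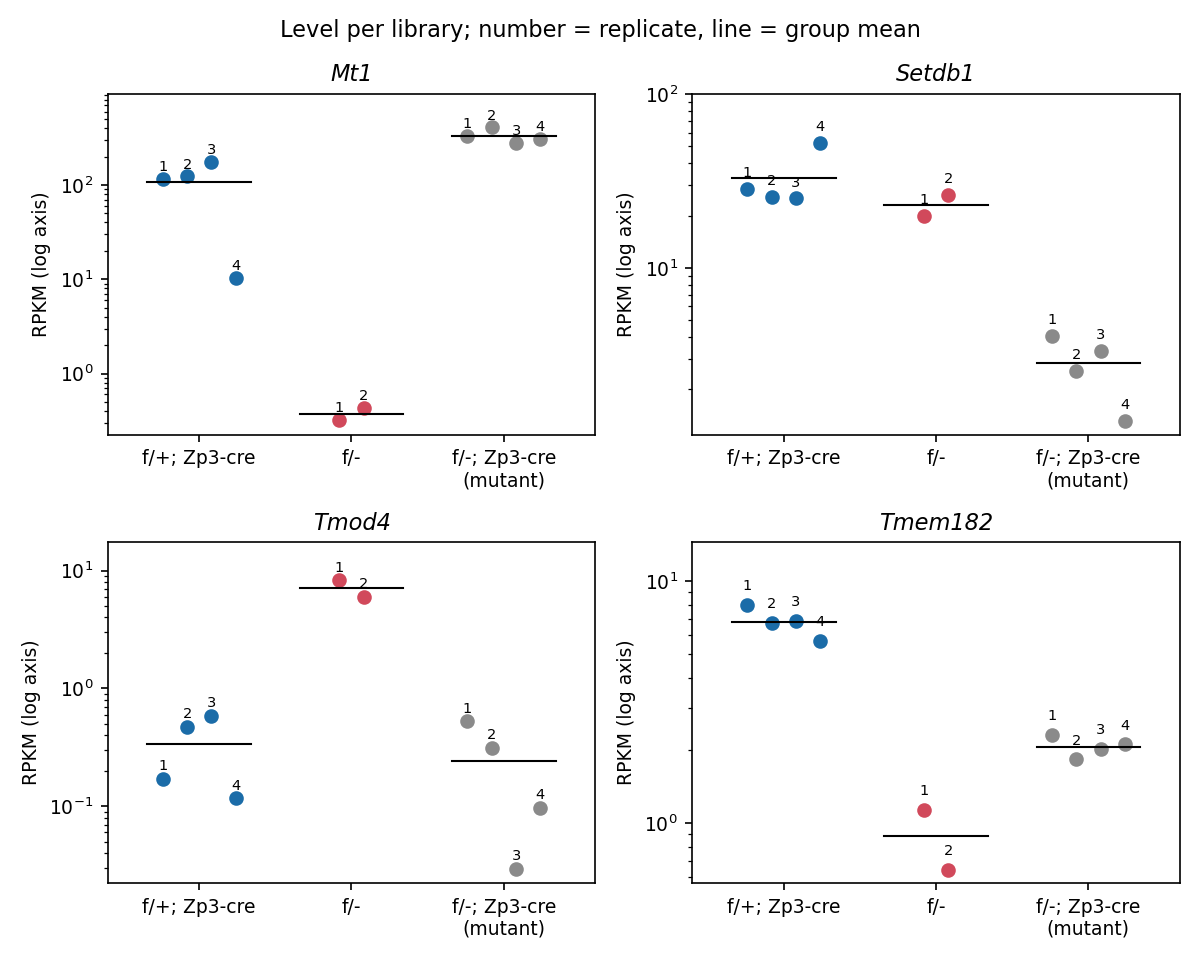
Level of Mt1, Setdb1, Tmod4 and Tmem182 in each library, in RPKM on a log axis; points carry the replicate number and lines are group means. Mt1 lies between 10.4 and 176 RPKM in f/+; Zp3-cre and below 1 RPKM in both f/- libraries, and f/+; Zp3-cre replicate 4 has the lowest Mt1 and the highest Setdb1 of its group.

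Setdb1 itself was listed at 28.6, 25.6, 25.1 and 52.5 RPKM in f/+; Zp3-cre and at 19.9 and 26.3 RPKM in f/-. The ranges overlapped, and replicate 4 of f/+; Zp3-cre, the library with the lowest Mt1, had the highest Setdb1. The means were 32.9 ± 13.1 RPKM (SD, n = 4) and 23.1 ± 4.48 RPKM (SD, n = 2). The difference of 0.45 ± 0.30 (SE) on the log2 scale was not detectable with these libraries (exact two-sided permutation test, p = 0.467). The mutants were listed at 4.06, 2.55, 3.32 and 1.31 RPKM, below each control library, so the labelled loss of Setdb1 in mutants was seen and both control genotypes kept the transcript. Setdb1 (chromosome 3, 95323525 to 95357202, minus strand) overlaps exons of Cers2 on the other strand, and the library kit does not mark strand.

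Over all genes, 18 of 11177 passed an adjusted p of 0.05 in limma, which is 0.161% of those tested. Of these, 8 were higher in f/+; Zp3-cre (0.0716% of genes) and 10 lower (0.0895%). The smallest adjusted p was 0.0356, and 58 further genes lay between 0.05 and 0.06. At an unadjusted p under 0.05 there were 2181 genes (19.5%), where 558.9 would be expected with no difference, 1315 with a positive difference (11.8%) and 866 with a negative one (7.75%). The libraries of the genotypes did not overlap for 3263 genes (29.2%), 1975 higher in f/+; Zp3-cre (17.7%) and 1288 lower (11.5%). If the 6 libraries were exchangeable, a share of 0.0667 would be expected in each direction, as 1 of the 15 splits into 4 and 2 gives it. The calls depended on the assumption that both groups vary alike: with a spread of its own for each group or each library, 0 genes passed, and 600 and 637 had an unadjusted p under 0.05. With f/+; Zp3-cre replicate 1, 2 or 3 left out 0 genes passed (1426, 1462 and 1981 at an unadjusted p under 0.05) and without replicate 4 there was 1, whereas without f/- replicate 1 there were 3690 and without f/- replicate 2 there were 1624. In these last 2 fits the spread comes from f/+; Zp3-cre alone and the lone f/- library is assumed to vary like that group, so their counts describe 1 library and not the genotype.

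**Figure D2:**
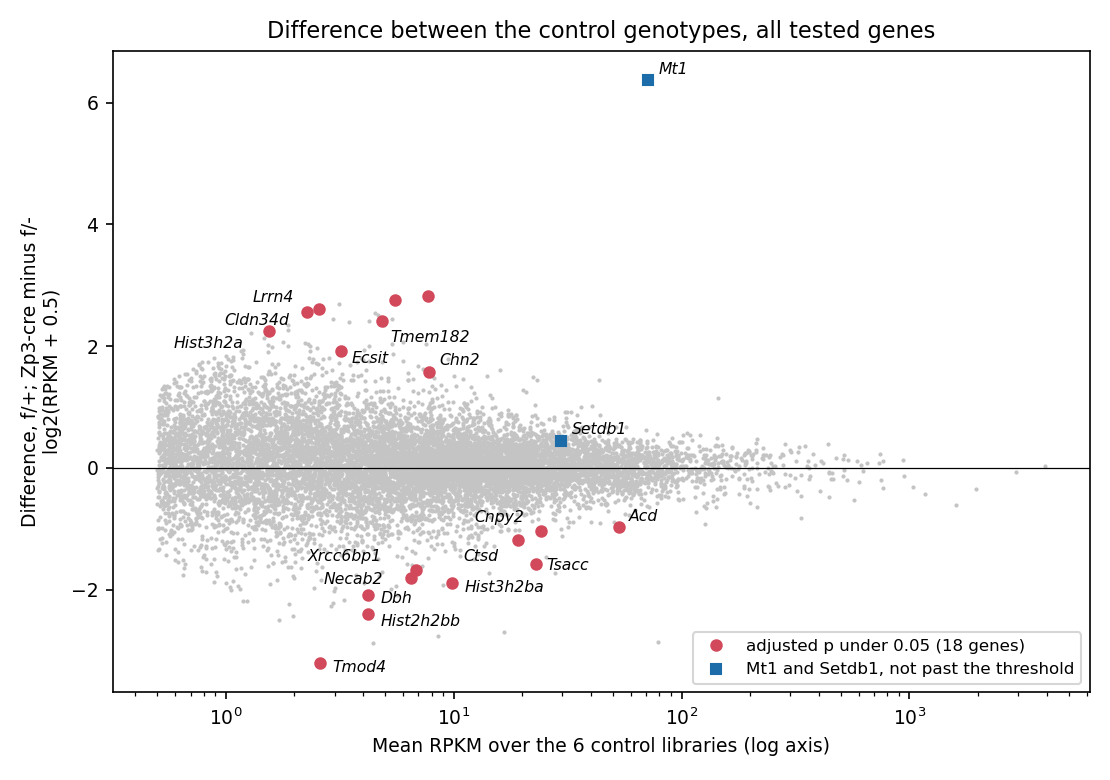
Difference between the control genotypes (y axis, log2 scale, positive values higher in f/+; Zp3-cre) against the mean level over the 6 libraries (x axis, RPKM, log axis); each grey point is 1 of 11177 genes. Red circles are the 18 genes past the threshold, of which the 2 without a name are a microRNA and a predicted gene, and blue squares are Mt1 at 6.38 and Setdb1 at 0.45.

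The named genes past the threshold that were higher in f/+; Zp3-cre were Tmem182, Lrrn4, Cldn34d, Hist3h2a, Ecsit and Chn2, which were listed at 0.0274 to 3.57 RPKM in f/-. Tmem182, a membrane protein gene known from differentiating muscle and fat cells (chromosome 1, 40805573 to 40856887), was listed at 8.02, 6.74, 6.84 and 5.69 RPKM in f/+; Zp3-cre and at 1.13 and 0.640 RPKM in f/-. All 4 libraries lay several fold above both f/- libraries, and the difference was 2.42 ± 0.25 (SE; limma adjusted p = 0.0356). The mutants lay between the control genotypes at 2.31, 1.83, 2.02 and 2.12 RPKM. Lrrn4, which encodes a neuronal leucine-rich repeat membrane protein, was listed at 3.51, 4.30, 3.85 and 3.31 RPKM against 0.313 and 0.0832 RPKM, a difference of 2.62 ± 0.27 (SE). Its 4 mutant libraries were uneven, at 8.68, 22.5, 2.87 and 15.8 RPKM, and all above f/-.

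Cldn34d, a claudin family gene on the X chromosome, was listed at 2.35, 3.77, 3.99 and 3.24 RPKM in f/+; Zp3-cre and at 0.282 and 0.0274 RPKM in f/- (difference 2.56 ± 0.32 SE). The mutants split into replicates 1 and 3 with 8.80 and 4.02 RPKM and replicates 2 and 4 with 0 and 0.0850 RPKM. Ecsit, which encodes a signalling adaptor that also takes part in assembly of respiratory complex I, was listed at 4.18, 4.71, 4.43 and 4.37 RPKM against 0.951 and 0.657 RPKM. The SD of Ecsit within f/+; Zp3-cre was 0.06 on the log2 scale, and its difference was 1.92 ± 0.23 (SE). Chn2, encoding a GTPase-activating protein for Rac, was listed at 9.36, 9.48, 10.5 and 11 RPKM against 3.57 and 2.57 RPKM, a difference of 1.58 ± 0.20 (SE). The limma adjusted p of Cldn34d, Ecsit and Chn2 was 0.0432. Chn2 and Ecsit overlap other annotated genes on the opposite strand, which cannot be separated here.

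The genes lower in f/+; Zp3-cre were Tmod4, Hist2h2bb, Dbh, Hist3h2ba, Necab2, Xrcc6bp1, Tsacc, Ctsd, Cnpy2 and Acd. Tmod4, a tropomodulin that caps the pointed ends of actin filaments in muscle, was listed at 0.170, 0.472, 0.585 and 0.117 RPKM in f/+; Zp3-cre and at 8.24 and 5.98 RPKM in f/-. The f/- mean of 7.11 ± 1.6 RPKM (SD, n = 2) was 21.2 times the f/+; Zp3-cre mean of 0.336 ± 0.228 RPKM (SD, n = 4). The difference was -3.21 ± 0.35 (SE; limma adjusted p = 0.0356). The mutants were at 0.526, 0.315, 0.0295 and 0.0962 RPKM. Tmod4 was thus below 1 RPKM in each of the 8 libraries with the transgene and above 5 RPKM in the 2 without it.

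Tsacc, which encodes a partner of the testis-specific kinase TSSK6, was listed at 11.8, 14.6, 16.1 and 11.9 RPKM against 38.7 and 44.3 RPKM in f/- (difference -1.58 ± 0.17 SE). Dbh, the enzyme that turns dopamine into noradrenaline, was listed at 1.85, 2.07, 1.59 and 1.47 RPKM against 7.47 and 10.8 RPKM (difference -2.09 ± 0.25 SE). Ctsd, the lysosomal protease cathepsin D, was listed at 13.1, 11.6, 14.6 and 13.5 RPKM against 32.8 and 28.8 RPKM (difference -1.19 ± 0.15 SE). Acd, which encodes the telomere protein TPP1, was listed at 41.6, 37.1, 37.8 and 43.6 RPKM against 73.5 and 84.4 RPKM (difference -0.97 ± 0.12 SE). In these 4 genes the f/- mean was 1.97 times (Acd) to 5.23 times (Dbh) the f/+; Zp3-cre mean. Necab2, Xrcc6bp1 and Cnpy2 had differences of -1.81, -1.67 and -1.03. Acd overlaps Carmil2 on the opposite strand, and Tsacc and Ctsd each overlap a predicted gene on their own strand.

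Of the 16 named calls, each kept its direction under all alternatives that gave it a value, and each lost the call under 8 to 11 of the 21 or 22 alternatives. The genes nearest outside the threshold included Lyrm4 (difference 1.24), Vps52 (1.69) and Rbm38 (-0.82), each with a limma adjusted p of 0.0501. Rbm38, an RNA-binding protein gene, was listed at 258, 255, 302 and 248 RPKM against 456 and 484 RPKM, with no overlap. Coq2, an enzyme of ubiquinone synthesis, was listed at 1.29, 1.97, 2.47 and 1.99 RPKM in f/+; Zp3-cre and at 0.0127 and 0.0161 RPKM in f/-, with a difference of 2.22 and an adjusted p of 0.0532. Over all 24453 symbols, with no filter on low values, 5 genes (Hist3h2a, Coq2, Ank1, Eps8l2 and Fam101a) were at or below 0.1 RPKM in both f/- libraries and at least 1 RPKM in all 4 f/+; Zp3-cre libraries, and 0 genes showed the reverse. The f/- libraries also had more symbols listed at 0 (10296 and 10728, against 7721 to 8499 in f/+; Zp3-cre), and the part of this in the 5 genes was not tested. Values near 0.1 RPKM rest on few reads, since a 2 kb transcript with 10 reads has 0.109 RPKM in f/- replicate 1, the control library with the fewest.

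**Figure D3:**
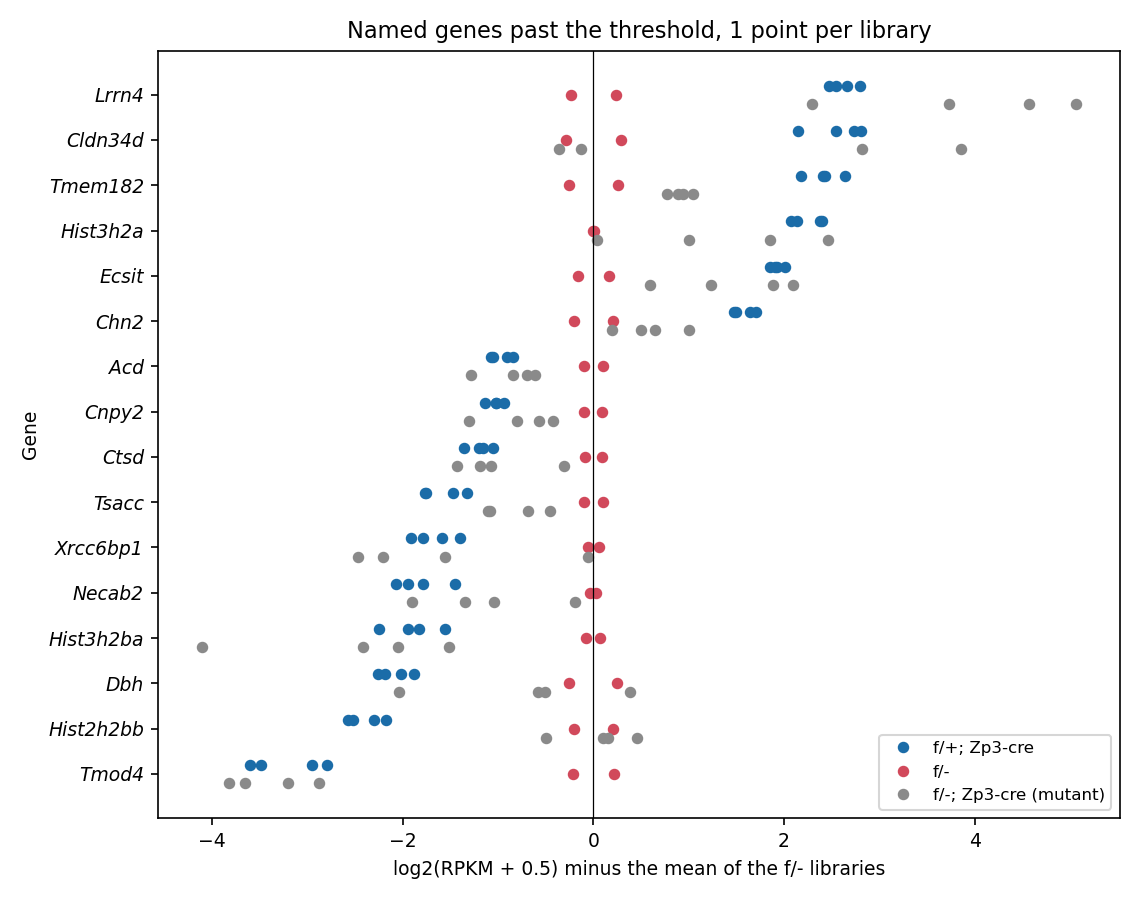
The 16 named genes past the threshold, with 1 point per library: log2(RPKM + 0.5) minus the mean of the f/- libraries (x axis). Blue f/+; Zp3-cre points and red f/- points do not overlap for any of these genes, from Lrrn4 at 2.62 to Tmod4 at -3.21, and the grey mutant points are given beside them.

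Among the calls, 3 genes, and 1 gene just outside the threshold, were genes of core histones, whose transcripts mostly end in a stem-loop in place of a poly(A) tail. Hist3h2a, an H2A gene, was listed at 1.95, 2.57, 2.54 and 2.06 RPKM in f/+; Zp3-cre and at 0.0857 and 0.0813 RPKM in f/- (difference 2.25 ± 0.27 SE; limma adjusted p = 0.0432). Its neighbour Hist3h2ba, an H2B gene, was listed at 5.14, 3.71, 4.71 and 6.31 RPKM against 18.6 and 20.6 RPKM (difference -1.90 ± 0.22 SE; limma adjusted p = 0.0432). The pair lies side by side on the plus strand of chromosome 11, Hist3h2ba from 58948911 to 58949372 and Hist3h2a from 58954685 to 58955192, and the 2 differences had opposite signs. Hist2h2bb, an H2B gene on chromosome 3, was listed at 1.55, 1.19, 1.26 and 1.74 RPKM against 8.26 and 11.1 RPKM (difference -2.39 ± 0.25 SE; limma adjusted p = 0.0356). Its mutant libraries, at 6.65, 13.4, 10.7 and 10.3 RPKM, were at the f/- level, unlike those of Tmod4. Hist1h2bh, an H2B gene on chromosome 13, was listed at 1.06, 1.32, 0.780 and 0.945 RPKM against 5.05 and 8.52 RPKM and missed the threshold (adjusted p = 0.0501). Over a list of 38 replication-type histone genes, which does not hold Hist3h2ba, 17 were tested, 1 was higher, 1 lower and 15 did not pass. Of all tested genes 0.161% passed. At an unadjusted p under 0.05 in limma, 1 of the 17 was positive and 5 were negative (11.8% and 7.75% over all tested genes). Of the 17, 3 differences were positive and 14 negative, with a median of -0.66 against 0.06 over all tested genes, and the median ran from -0.95 to -0.42 under the 8 alternatives computed for it. Hist1h1a had overlapping groups, at 50.6, 51.7, 47.7 and 44.7 RPKM against 52.8 and 44.8 RPKM. Hist3h2a overlaps an annotated exon of Trim17, which was listed below 0.2 RPKM in each control library, and near-identical histone genes may share reads.

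Of the 18 calls, 3 lie within 10 Mb of Setdb1, whose targeted allele differs between the genotypes. In this window 195 other genes were tested, and the 3 are 1.54% of them, against 0.161% of all tested genes. All 3 were lower in f/+; Zp3-cre. The count rests on the window, as within 5 Mb 2 of 91 genes passed. Of the 195 genes, 39 had an unadjusted p under 0.05 in limma (19.5% over all genes). The genotypes did not overlap for 52 of them (29.2% over all genes). Tmod4 (95122799 to 95129209) lies 194.3 kb from Setdb1, Hist2h2bb 912.5 kb from it and Tsacc (88282752 to 88296999) further away. In the mutants, which share the deleted allele with f/-, Tmod4 was at the f/+; Zp3-cre level and Hist2h2bb at the f/- level. Tmod4 is the 1 gene of its immediate neighbourhood that passed: Vps72 on one side had a difference of 0.28 (adjusted p = 0.784 in limma) and Scnm1 on the other 0.37 (adjusted p = 0.608). Within 1 Mb, 53 genes were tested, 0 were higher, 2 lower and 12 did not overlap between the genotypes (29.2% over all genes). The median difference of the 195 genes was 0.02. Chromosome 3 as a whole had 20.4% of its tested genes at an unadjusted p under 0.05, close to the 19.5% of all genes.

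Oocyte markers were high in all 6 libraries, with a summed level of 10830 to 13316 RPKM in f/+; Zp3-cre and of 11832 and 13936 RPKM in f/-. Of these 32 genes, 31 were tested, 0 passed in limma, and 5 had an unadjusted p under 0.05, all with negative differences. Over all genes the shares were 0.161% past the threshold and, at an unadjusted p under 0.05, 11.8% positive and 7.75% negative, which also apply to the lists below. Zp3, the zona glycoprotein gene whose promoter drives the transgene, was listed at 882, 1019, 1012 and 914 RPKM in f/+; Zp3-cre and at 1236 and 1136 RPKM in f/-. The groups did not overlap, but the difference of -0.31 ± 0.10 (SE) had an adjusted p of 0.167 in limma. Of the 16 tested genes of the zona and oocyte growth factor list, 0 passed in limma, 2 had an unadjusted p under 0.05, and the median was -0.16. Nothing passed either among 24 genes of H3K9 methylation and heterochromatin (median 0.20), 12 of DNA methylation (-0.12), 35 of DNA damage and repair (0.14), 22 of cyclic AMP signalling (0.18), 28 of CDK1 control (0.04) and 34 of the spindle and kinetochore (0.12). For the same lists, 0, 0, 6, 2, 2 and 6 genes had an unadjusted p under 0.05 with a positive difference and 1, 2, 4, 2, 1 and 0 with a negative one. Nuf2, a kinetochore subunit, came closest, with 48.4 ± 2.23 RPKM (SD, n = 4) against 24.2 ± 6.22 RPKM (SD, n = 2) and an adjusted p of 0.0539.

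Markers of other cells had summed levels far below those of the oocyte markers in both genotypes, but single genes such as Pecam1 were not near 0. In 16 granulosa and cumulus genes, 9 were tested, 0 passed in limma, 1 had an unadjusted p under 0.05, and Ptx3 and Tnfaip6 were at 0 in all 6 libraries. Their summed level ran from 103 to 124 RPKM in f/+; Zp3-cre and from 91.6 to 93.3 RPKM in f/-. Of 16 blood, immune and endothelial genes, 4 were tested, 0 passed in limma, 3 had an unadjusted p under 0.05 and all 4 differences were negative (7.75% of all tested genes had a negative difference at that p), while Hbb-b1, Hba-a1, Cdh5 and C1qc were at 0 in all 6 libraries. Among these 4 were Pecam1, at 17.4, 14.7, 20.1 and 18.6 RPKM against 27.1 and 22.8 RPKM, and Cd68, at 0.444, 0.590, 0.568 and 1.36 RPKM against 2.34 and 2.20 RPKM. The summed level of the 16 genes ran from 30.2 to 40.5 RPKM in f/+; Zp3-cre and from 44.8 to 48.8 RPKM in f/-. In pooled RNA, fewer cells of a type and less RNA per cell cannot be told apart. Tmod4 and Tmem182 are also skeletal muscle genes, but of the 25 genes of that list 8 were tested and the other 6 did not pass, with 0 at an unadjusted p under 0.05. The median of the 8 was 0.05, Myl1, Myoz1, Tcap, Tnni2 and Tnnt3 were at 0 in all 6 libraries, and the summed level was 28.8 to 31.9 RPKM in f/+; Zp3-cre and 28.3 to 32.3 RPKM in f/-. Of 19 smooth muscle and stroma genes, 4 were tested and 0 passed in limma, with 0 at an unadjusted p under 0.05 and summed levels of 29.2 to 31.6 RPKM against 24.6 and 54.8 RPKM, the last from Actg2 in f/- replicate 2.

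The spread between libraries was unequal. The 4 f/+; Zp3-cre libraries lay close to each other, whereas the 2 f/- libraries differed from each other more than either differed from any f/+; Zp3-cre library. Over the tested genes, the SD of log2(RPKM + 0.5) had a median of 0.19 in f/+; Zp3-cre and 0.39 in f/-, and it was larger in f/- for 73.8% of them. The median absolute difference of a gene between 2 libraries was 0.15 to 0.25 within f/+; Zp3-cre and 0.55 between the f/- libraries. From f/+; Zp3-cre to f/- replicate 1 it was 0.38, and to f/- replicate 2 it was 0.47 to 0.53. A difference over 1 on the log2 scale was found in 1.01% to 3.70% of genes within f/+; Zp3-cre and in 27.5% between the f/- libraries. Among 6091 genes of at least 5 RPKM, the 2 f/- libraries lay on opposite sides of the f/+; Zp3-cre range for 1333 (21.9%) and on the same side for 1760 (28.9%).

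**Figure D4:**
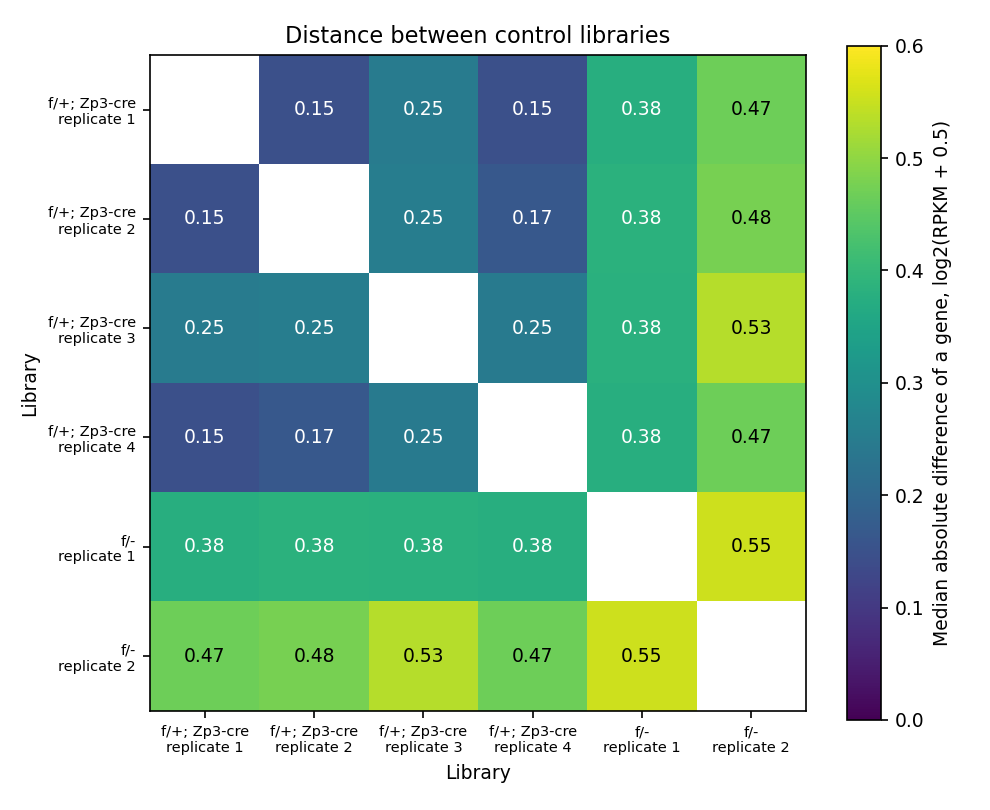
Median absolute difference of a gene between each pair of the 6 control libraries, on the scale of log2(RPKM + 0.5); brighter squares are larger. The f/- pair has the largest value, 0.55, and the 3 pairs of f/+; Zp3-cre replicate 3 with its group, near 0.25, exceed the other pairs of that group.

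Single genes show how far the f/- libraries were apart. Ptprf, a receptor-type tyrosine phosphatase, was listed at 6.43 RPKM in f/- replicate 1 and at 436 RPKM in f/- replicate 2. In f/+; Zp3-cre it was listed at 7.19, 7.75, 7.32 and 6.16 RPKM and in the mutants at 4.14 to 6.38 RPKM, so 1 library of 10 stood apart. Actg2, smooth muscle gamma actin, was listed at 0.629 and 21.9 RPKM in f/-, and at 1.53 to 3.34 RPKM in f/+; Zp3-cre. Other genes were nearly absent from f/- replicate 2. Cd99l2, a cell adhesion gene, was listed at 9.72 and 0.129 RPKM in f/- and at 7.52, 6.19, 7.11 and 7.08 RPKM in f/+; Zp3-cre. Olah, a thioesterase of fatty acid synthesis, was listed at 9.93 and 0.164 RPKM in f/- and at 8.97, 9.0, 7.53 and 6.42 RPKM in f/+; Zp3-cre. For none of these 4 genes does the f/- mean describe either of its libraries. Among the 6091 genes, 600 were higher in f/- replicate 1 by over 1 on the log2 scale and 372 in f/- replicate 2.

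Within f/+; Zp3-cre, replicate 3 held most of the genes that stood apart. Replicate 3 was over 1 above each other library of its group for 20 of the 6091 genes and below for 5, replicate 4 was above for 0 and below for 3, replicate 1 for 0 and 2, and replicate 2 for 0 and 0. The level of replicate 3 relative to its group's mean fell with transcript length (Spearman's rho -0.23 across genes, against 0.07 to 0.16 in the other 3). That mean includes replicate 3 itself, so a fall in it raises the values of the others, and the contrast is partly built in. In replicate 3, Cnpy4 was listed at 48.8 RPKM (11.4, 10.8 and 13.3 RPKM in the others) and Abcc4, a transporter that exports cyclic nucleotides, at 22.7 RPKM (5.94, 5.22 and 7.24 RPKM). The 3 low genes of replicate 4 were Mt1, Sec23ip and Gdpd3, a phosphodiesterase of lipid metabolism listed at 14.8, 12.3, 12.2 and 1.64 RPKM. The f/- libraries, at 5.87 and 3.60 RPKM, lay inside that range. The most variable gene of the group was the pseudogene Cyp2c53-ps, listed at 3.72 and 2.76 RPKM in replicates 1 and 2 and at 42.3 and 36.1 RPKM in replicates 3 and 4. It was at 52.9 and 29.4 RPKM in f/- and at 92.5 to 166 RPKM in the mutants. Cyp2c29, with which its annotation overlaps on the same strand, was even in the controls, at 5.62, 3.73, 6.54 and 4.91 RPKM in f/+; Zp3-cre and at 4.23 and 4.31 RPKM in f/-. The split of the pseudogene was thus not shared by Cyp2c29, although reads of such near-identical genes may be divided between them.

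Detection and base composition also separated the genotypes. The labels give no batch or date, so a round of library preparation and the genotype cannot be told apart. Of the 24453 symbols, 7721 to 8499 were listed at 0 in f/+; Zp3-cre and 10296 and 10728 in f/-, although f/- replicate 2 had the most reads (approximately 72.7 M, against 45.9 M in f/- replicate 1 and 56.4 to 68.9 M in f/+; Zp3-cre). The mutants were at 8986 to 10610. The difference between the genotypes fell with the GC content of the transcript, from a median of 0.17 in the lowest of 5 equal GC bins to -0.11 in the highest (Spearman's rho -0.21 across 11012 genes, which are not independent replicates). Of the 10 genes called lower in f/+; Zp3-cre, 6 were in the highest bin and 0 in the lowest 2 bins. Of the 8 called higher, 3 were in the lowest 2 bins. Against the f/+; Zp3-cre mean, the rho of a library's level with GC was 0.14 and 0.15 in f/- and 0.12 to 0.17 in the mutants, and -0.02 to 0.01 among the f/+; Zp3-cre libraries. The last values are near 0 in part by construction, since the reference is the mean of those same libraries. A trend that they share would appear in f/- and the mutants instead, and which group departs was not tested. With the GC and length trends removed, an alternative chosen after the data were seen, 13 genes were higher and 15 lower, and 16 of the 18 calls were shared. The part of GC content and detection in the single calls was not tested beyond this.

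**Figure D5:**
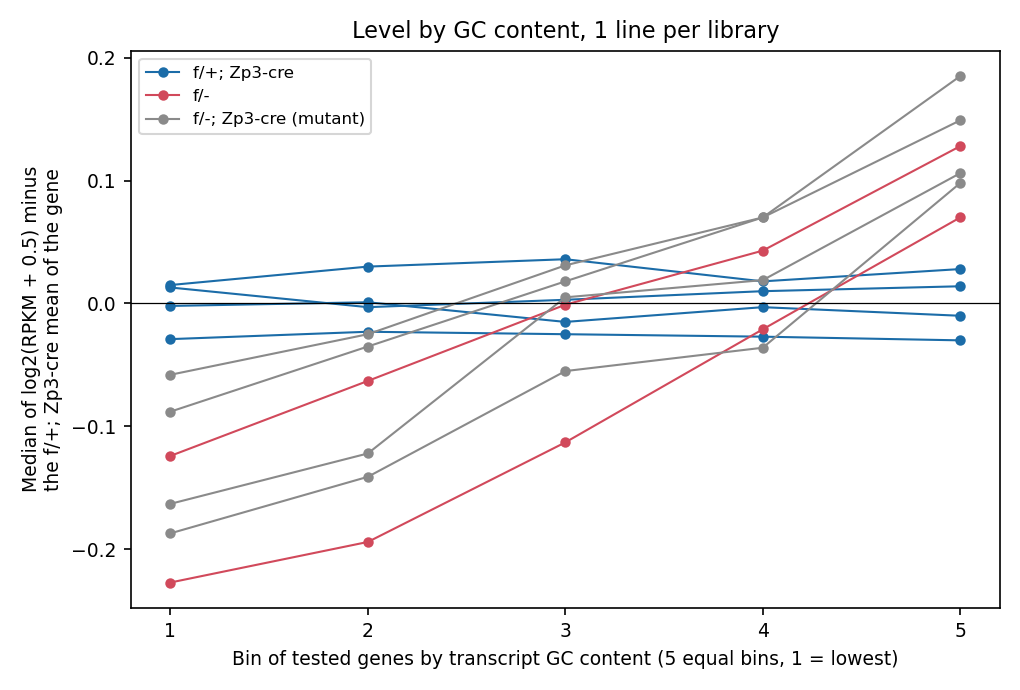
Median over genes of log2(RPKM + 0.5) minus the gene's f/+; Zp3-cre mean (y axis), in 5 equal bins of transcript GC content (x axis, 1 the lowest), with 1 line per library. The f/+; Zp3-cre lines are flat within 0.04 of 0, while both f/- lines climb, from -0.12 to 0.13 and from -0.23 to 0.07, as do the 4 mutant lines. The reference is the mean of the f/+; Zp3-cre libraries themselves. A trend shared by them is therefore removed from their lines and appears in the others.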

How the data were processed

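RNA-seq of 6 control and 4 mutant oocyte pools was used as deposited: 1 table of RPKM made by the authors, with 34768 RefSeq transcripts. Per the submitters' processing notes, bcl2fastq 1.8.3, STAR and mm10 were used. For the counting tool, the sources used here give no name. Per the labels' protocols, RNA was isolated with a Qiagen RNeasy Micro kit, the cDNA was amplified (NuGen Ovation), and a TruSeq DNA kit was used for the libraries, so values do not separate strands.

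Each symbol was represented by its row of highest mean RPKM. Genes averaging 0.5 RPKM or more over the 6 control libraries were tested on log2(RPKM + 0.5), which understates changes of low genes. The 2 groups were fitted in limma 3.58.1 (R 4.3.3) with an empirical Bayes trend and Benjamini-Hochberg adjustment over all tested genes (threshold 0.05). All adjusted p-values of genes are from limma. Setdb1 and Mt1 were also tested alone by exact permutation. Positions and promoters came from RefSeq on GRCm38.p6 (99.8% of rows had a position). Lengths, GC content and overlaps came from GENCODE M21 (97.7% of rows had a length).

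Named genes are Setdb1, Mt1, Tmod4 and Tmem182, up to 12 per direction past the threshold with no overlap and a group mean of at least 1 RPKM (places left over went to genes in order of p that did not pass), up to 3 called members of each list, called genes within 1 Mb of Setdb1, and the 8 most variable genes in each genotype. Called predicted genes and small RNAs were counted (2 higher, 0 lower), not named. All other genes in the text were named after their values were seen. Members and gene lists were chosen with earlier results of these data known. Read totals (45.9 to 72.7 M per control library) were estimated from the spacing of low values, of which 67.5% to 70.7% were within 0.1 of a whole read, so no count test was run. Each library is 1 mouse. Numbers shared by replicates of the genotypes did not pair them: the correlation of deviations was -0.05 for replicate 1 and 0.02 for replicate 2.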

Additional observations from a re-analysis of the deposited data

Results flagged for a closer look

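A library was singled out where its gap to the nearest of the other 3 of its group, as a share of the group's range, exceeded the critical value of Dixon's test. Gap and range were taken in RPKM and not on the log2 scale, so low values of a group weigh less. The low Mt1 and Gdpd3 of f/+; Zp3-cre replicate 4 were not singled out on this scale. Among 80 groups of 4 libraries (40 named genes, f/+; Zp3-cre and mutants), 6 were singled out, where chance alone gives about 1 in 20, or 4 of 80. That rate does not hold for Cnpy4, Abcc4 and Tcstv3 in f/+; Zp3-cre. These genes were named because they vary most between the libraries of that group, so these entries restate that choice. Mutant libraries played no part in the choice of Tcstv3 and Mir546. Whether a gene that varies in 1 group also varies in another was not tested. The f/- group, with 2 libraries, could not be examined this way. Setdb1 was listed at 52.5 RPKM in f/+; Zp3-cre replicate 4, against 25.1 to 28.6 RPKM in the others. Replicate 3 of f/+; Zp3-cre accounted for 3 of the 6: Cnpy4 at 48.8 RPKM (10.8 to 13.3 RPKM in the others), Abcc4 at 22.7 RPKM (5.22 to 7.24 RPKM) and Tcstv3, a gene of the two-cell embryo, at 13.6 RPKM (1.85 to 3.75 RPKM). Mutant replicate 4 accounted for the other 2: Tcstv3 at 23.6 RPKM (5.49 to 6.53 RPKM) and Mir546, a microRNA whose row shares its position with Ctdsp2, at 12.8 RPKM (4.31 to 4.85 RPKM).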

How the results depend on the processing

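The counts of genes higher and lower in f/+; Zp3-cre (8 and 10) moved with most choices. They were 30 and 21 with a pseudocount of 0.1 RPKM, 18 and 23 with a filter at 2 RPKM, 25 and 32 after quantile normalization, 129 and 56 without the trend, 3 and 5 in the model with mutants, 18 and 15 with summed rows, 212 and 150 at a threshold of 0.1, and 13 and 15 with GC and length trends removed (chosen after the data were seen). They were 0 and 0 with no filter (3028 genes at an unadjusted p under 0.05 in limma) and with weights per library or per group (637 and 600). Leaving out 1 library gave 0 to 2283 higher and 0 to 1407 lower, with the upper ends from fits in which 1 f/- library is left and f/+; Zp3-cre alone supplies the spread. With the replicate number as a block, 1 and 1 passed, neither among the 18; the 2 shared numbers do not pair the mice. Median centring moved the share of higher genes among the calls to 52.6% (10 and 9). The median SD of a gene was 0.14 in f/+; Zp3-cre with a pseudocount of 2 RPKM and 0.14 without replicate 3 (0.14 to 0.19 over the libraries left out). In f/- it was 0.44, 0.35 and 0.29 with pseudocounts of 0.1, 1 and 2 RPKM, 0.23 with no filter and 0.34 with a filter at 2 RPKM. The Setdb1 difference kept its sign (0.20 to 0.64). Single genes turned sign where 1 library was left out: over these fits the difference ran from -0.83 to 1.61 in Tcstv3 (-0.29 with the replicate block), -3.24 to 0.77 in Mir546, -5.85 to 0.13 in Ptprf, -3.10 to 1.69 in Snord4a, -1.70 to 2.92 in 2610306M01Rik, -3.13 to 1.18 in Actg2, -0.45 to 3.57 in Cd99l2, -0.76 to 3.25 in 2900009J06Rik and -0.31 to 3.66 in Olah. The cause was not tested. With 2 f/- mice the spread of that group is poorly known, and amplified reads are not independent molecules.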
